A study of Mus musculus with 2 samples.

Results

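Collagen and laminin chains make up most of the fibrous and sheet-like scaffold around cells, and their transcripts were followed here across the cell types of the mouse dentate gyrus. The members are all genes whose symbol has the form of a collagen alpha chain (such as Col4a1) or of a laminin alpha, beta or gamma chain (such as Lama2). This symbol rule, which uses no measured value, found 49 genes among the 17592 of the table, 39 of them collagens and 10 laminins. In the young brain-class cells defined below, 22 members had at least 20 UMIs (unique molecular identifiers, each marking 1 captured transcript), 24 had 1 to 19 UMIs and 3 had none.

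The dentate gyrus is the part of the hippocampus in which granule neurons are added in adult life. Dissected tissue of C57BL/6 mice, 3 months old for the young library and 16 months old for the old library, was dissociated with papain, and live cells sorted by exclusion of propidium iodide were profiled with 10x Genomics 3′ chemistry (v3). Each age has 1 library, the number of animals is not given in the sources used here, and no transgene or treatment is named. No test, p-value or standard error is therefore given for any difference: intervals are 95% and cover counting error only, and cells are not replicates.

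Collagens are built from 3 chains wound into a triple helix. Fibrillar collagens such as types I, III, V and XI assemble into rope-like fibres, whereas type IV collagen forms the network of basement membranes, the thin sheets under endothelium and around smooth muscle. Laminins are cross-shaped trimers of 1 alpha, 1 beta and 1 gamma chain that form the other network of these sheets. In the brain they line every capillary between the endothelial cell, the pericyte embedded in the sheet and the astrocyte endfoot, and astrocytes and vascular cells are known to supply different laminin alpha chains.

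In all, 16217559 UMIs were counted in 2463 young-library cells, against 7451506 in the 1430 old-library ones. The libraries are not separate samples of cells: 1401 of the old barcodes (98%) were also in the young library. The young rows are used below, and the old rows of the same barcodes stand beside them only as a second reading of largely the same cells. Of the 1120 brain-class cells defined next, 1082 share a barcode with the old library, against 319 of the 1343 other young-library cells, so the age of the brain-class cells cannot be told from the table, and "young" names the library only. The young cells fell into 1120 with a mitochondrial share of at least 1% (median share 7.06%, median 5270.5 UMIs), called brain-class cells, and 1343 below it (median share 0.0829%, median 7180 UMIs), called low-mitochondrial cells, with 106 cells between 0.5% and 2%. The low-mitochondrial cells are described apart. Brain-class cells were clustered without the 49 members and named from marker genes, as 351 microglia-like, 279 astrocyte-like, 130 endothelial-like, 82 oligodendrocyte-like, 69 pericyte-like, 59 neuroblast or immature neuron-like, 43 oligodendrocyte precursor-like, 14 smooth muscle-like and 10 perivascular macrophage-like cells. The pericyte-like cluster held 12 of 12 pericyte markers, the smooth muscle-like cluster 10 of 10 and both endothelial-like clusters 12 of 13, whereas the microglia-like cluster was led in part by stress genes such as Atf3, Jun and Fos. The pericyte-like cluster also held 3 of 10 smooth muscle markers, and the smooth muscle-like cluster 5 of 12 pericyte markers. The astrocyte-like cells join a cluster of 256 cells with 12 of 12 markers and another of 23 cells with 6 of 12. A cluster of 72 cells led by Ttr and hemoglobin genes and 1 of 11 cells with both B and T cell markers were left unnamed, and no fibroblast cluster was found.

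Members were most abundant in mural cells, the contractile cells on the outside of vessels. Summed over all 49 genes, the level was 30.2 UMIs per 10,000 (28 to 32.6) in pericyte-like cells, 15.8 (13.4 to 18.6) in smooth muscle-like cells, 9.42 (8.56 to 10.3) in endothelial-like cells and 7.96 (7.38 to 8.58) in astrocyte-like cells. The intervals of the last 2 meet between 8.56 and 8.58, so their order is not settled by counting error alone. Oligodendrocyte precursor-like cells followed with 3.84 (3.19 to 4.57), then neuroblast-like cells with 2.12 (1.72 to 2.59), microglia-like cells with 1.92 (1.76 to 2.09) and oligodendrocyte-like cells with 1.36 (1.1 to 1.65). Perivascular macrophage-like cells held 4 member UMIs in all. Pericyte-like cells held 3.44% of the brain-class UMIs and 23.3% of the 2857 member UMIs.

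**Figure D1:**
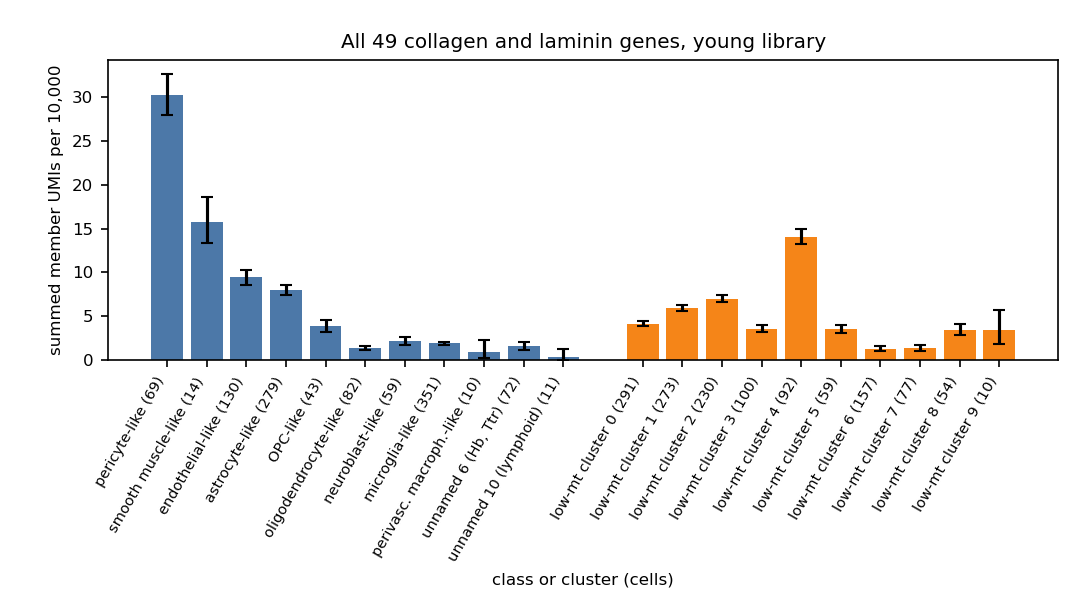
Summed level of the 49 collagen and laminin genes in UMIs per 10,000 (y axis) for each named class or unnamed cluster of young brain-class cells (blue) and each cluster of young low-mitochondrial cells (orange), with cell numbers in parentheses on the x axis and 95% Poisson intervals as error bars. Pericyte-like cells stand highest at 30.2, and low-mitochondrial cluster 4 stands at 14 beside 1.27 to 6.98 in the other low-mitochondrial clusters.

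The class medians of single cells kept this order, but single cells of different classes overlapped. Pericyte-like cells had a median of 30.1 member UMIs per 10,000 (lowest 0, quartiles 18.6 and 37.6, highest 162). Of these cells, 98.6% had at least 1 member UMI. Single endothelial-like cells had a median of 8.62 (quartiles 5.74 and 12.4, highest 59.2). Astrocyte-like cells had 7.97 (quartiles 2.7 and 14.8, highest 59.1) and microglia-like cells 1.5 (highest 24.2). The lowest smooth muscle-like cell had 6.04, and all 14 of these cells had a member UMI.

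To count members per class, a member was called higher when its level plus 0.1 reached 4 times the same sum in all remaining brain-class cells, among genes with at least 20 UMIs. In pericyte-like cells 10 of the 22 testable members were called (Lamc3, Lamc1, Col1a2, Col4a1, Col3a1, Lama4, Col4a2, Lama2, Lamb2 and Col5a2), where 3.23% of the 12307 genes tested were, and the median log2 ratio of the members was 1.67 beside -0.12 for all genes. In smooth muscle-like cells 8 were called (Lamb2, Col18a1, Col4a2, Col1a2, Lama5, Col4a1, Col4a5 and Lamc1), where 2.87% of all genes were, with medians of 0.87 and -0.42. In endothelial-like cells 4 were called (Col4a2, Lama5, Col4a1 and Lamb2), beside 3.99% of all genes. In astrocyte-like cells 3 were called (Col11a2, Col16a1 and Lama2), beside 4.37% of all genes. The median member was not raised in these classes: medians were -0.44 beside -0.15 for all genes in endothelial-like cells and -0.17 beside -0.01 in astrocyte-like cells. Oligodendrocyte precursor-like cells had 1, Col11a1, beside 3.82% of all genes. None of the 22 was called in microglia-like (2.67% of all genes), oligodendrocyte-like (3.27%), neuroblast-like (2.85%) or perivascular macrophage-like cells (1.41%). In the same order, the members' medians were -1.17 beside -0.42 for all genes, -0.70 beside -0.31, -0.79 beside 0.07 and -0.86 beside -0.63. The count of 22 is not a count of all members, since a gene could reach 20 UMIs through the class in which it is high. With 1 in place of 0.1 added to each level, 2 members were called in pericyte-like cells and none in the smooth muscle-like, endothelial-like and astrocyte-like cells, and with 0.01 the astrocyte-like count was 8 and the oligodendrocyte precursor-like count 3. The microglia-like count of 0 became 2 with 0.01 added and 1 under 6 other settings (members kept among the variable genes, both libraries clustered together, resolution 0.5, mitochondrial limits of 0.5% and 2%, and old rows).

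**Figure D2:**
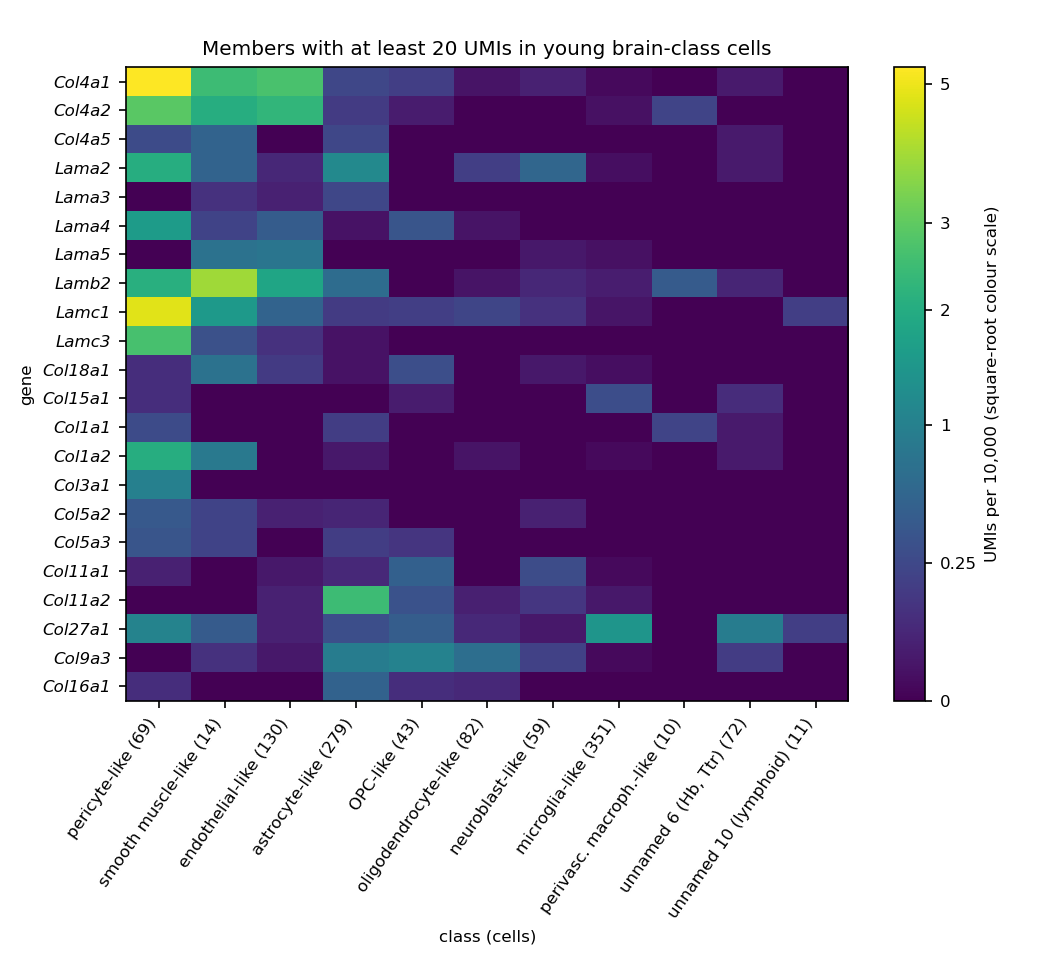
Level in UMIs per 10,000 (colour, square-root scale) of each of the 22 members with at least 20 UMIs in young brain-class cells (rows) in each class (columns, cell numbers in parentheses). Col4a1, Col4a2 and Lamb2 are high in the 3 vascular columns at the left, Lamc3 and Col3a1 in the pericyte-like column, Col11a2 and Col16a1 in the astrocyte-like column and Col27a1 in the microglia-like column.

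Col4a1 and Col4a2, whose products form the common type IV collagen trimer of vessel walls, were the leading type IV chains. Col4a1 (chr8:11198423-11312826, minus strand, GRCm38) had 296 UMIs, 125 from endothelial-like and 116 from pericyte-like cells. Its level was 5.27 (4.36 to 6.32) in pericyte-like, 2.69 (2.24 to 3.2) in endothelial-like and 2.48 (1.57 to 3.72) in smooth muscle-like cells, so that the pericyte-like level lay above the intervals of the other 2, which overlapped. The next level was 0.243 in astrocyte-like cells, and microglia-like cells had 1 UMI in 351 cells. Col4a2 (chr8:11312805-11449287, plus strand) had 208 UMIs and levels of 2.91 (2.24 to 3.71), 2.28 (1.87 to 2.76) and 2.05 (1.23 to 3.19) in the same order, with overlapping intervals. Against all other brain-class cells, Col4a1 was 18.1-fold higher in pericyte-like and 9.33-fold in endothelial-like cells, and Col4a2 12.5-fold and 13.3-fold. Both endothelial-like clusters had like levels of Col4a1, 2.58 (1.87 to 3.47) in 40 cells and 2.75 (2.19 to 3.41) in 90 cells.

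These genes lie head to head, and their annotated start sites overlap by 22 bases. The overlap is shown because both genes share it. Capitals mark a GC box (GGGCGG or its complement), found in 32.7% of 32851 RefSeq promoter windows of 250 bases. The stretch is chr8:11312805-11312826, plus strand, from the RefSeq GRCm38.p6 table.
Col4a1 and Col4a2 overlap: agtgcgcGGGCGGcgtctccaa
Of 130 endothelial-like cells, 47 had UMIs of both genes, 26 of Col4a1 alone, 24 of Col4a2 alone and 33 of neither. Of 69 pericyte-like cells, 31 had both, 21 Col4a1 alone, 8 Col4a2 alone and 9 neither. Whether the pair went together within the cells of a class was not tested. Col4a1 was detected in 75.4% of pericyte-like and 56.2% of endothelial-like cells, beside 0.285% of microglia-like cells, which are deeper (median 7911 UMIs against 3129 and 3245). Thinned to 2000 UMIs per cell, which leaves out the 228 brain-class cells below that depth, the shares were 67.3% of 55 and 40.2% of 97 cells.

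The other type IV chains build the collagen of specialised basement membranes such as those of the kidney and lens, and they were scarce in brain-class cells. Col4a5 had 33 UMIs, 21 of them in astrocyte-like cells (0.243, 0.15 to 0.371) and 6 in pericyte-like cells (0.273, 0.1 to 0.594), beside 5 in smooth muscle-like cells (0.538, 0.175 to 1.26). No Col4a5 UMI was found in endothelial-like cells, which allows a level of up to 0.0645. Col4a3 had 12 UMIs, 9 in 9 different pericyte-like cells, and Col4a4 had 10, of which 5 were in pericyte-like and 4 in astrocyte-like cells. All 5 Col4a6 UMIs fell in pericyte-like cells, each in a different cell.

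Both of these pairs are also arranged head to head, and the sequences between their start sites are shown because members of a pair share them. Between Col4a4 and Col4a3 lie 71 bases, chr1:82586850-82586920, read on the minus strand. The Col4a6 and Col4a5 start sites are 1308 bases apart, and the stretches before each start that hold no GENCODE exon are chrX:141475169-141475384 (plus strand, Col4a5) and chrX:141474077-141474326 (minus strand, Col4a6). Capitals mark a CCAAT box in the Col4a5 stretch and a GC box in the Col4a6 stretch. CCAAT was in 33.8% of the 250-base windows, and the shorter stretches have less room for a match.
Col4a4 and Col4a3, between the starts: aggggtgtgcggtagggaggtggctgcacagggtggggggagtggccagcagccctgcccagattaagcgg
Col4a5, before its start: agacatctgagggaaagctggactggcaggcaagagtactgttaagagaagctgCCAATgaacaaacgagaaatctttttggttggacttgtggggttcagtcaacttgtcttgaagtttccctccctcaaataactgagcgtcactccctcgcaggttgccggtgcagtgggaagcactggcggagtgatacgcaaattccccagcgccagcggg
Col4a6, before its start: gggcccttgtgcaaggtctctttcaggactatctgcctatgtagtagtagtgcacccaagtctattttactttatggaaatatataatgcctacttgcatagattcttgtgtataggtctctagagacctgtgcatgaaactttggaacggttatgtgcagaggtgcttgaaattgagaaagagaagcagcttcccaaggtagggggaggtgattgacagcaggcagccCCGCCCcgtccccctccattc
No TATAAA was found in these letters, which says nothing of any factor. It was in 12.4% of the 250-base windows.

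Laminin alpha chains, which carry the cell-binding globular domains and set a laminin's partner receptors, differed in their lead class. Lama2 (196 UMIs), the alpha chain of laminin-211, whose loss causes a congenital muscular dystrophy, had 101 UMIs in astrocyte-like and 45 in pericyte-like cells. Its level was 2.05 (1.49 to 2.74) in pericyte-like, 1.17 (0.95 to 1.42) in astrocyte-like and 0.574 (0.375 to 0.84) in neuroblast-like cells, beside 0.0645 (0.0133 to 0.188) in endothelial-like cells. These 4 intervals do not overlap, but that of smooth muscle-like cells (0.538, 0.175 to 1.26) overlaps each of them except the pericyte-like one. The oligodendrocyte-like interval (0.178, 0.0948 to 0.304) overlaps the endothelial-like one.

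Lama5, an alpha chain of the endothelial laminin-511, showed another distribution. It had 48 UMIs, 37 of them in endothelial-like cells (0.796, 0.56 to 1.1) and 7 in smooth muscle-like cells (0.754, 0.303 to 1.55), and was 42.9-fold higher in endothelial-like than in the other brain-class cells. No Lama5 UMI was found in the 69 pericyte-like or the 279 astrocyte-like cells, which allows levels of up to 0.136 and 0.0347.

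Lama4, the alpha chain of the vascular laminin-411, was highest in pericyte-like cells with 35 of 72 UMIs (1.59, 1.11 to 2.21). It reached 0.452 (0.279 to 0.69) in endothelial-like and 0.368 (0.19 to 0.643) in oligodendrocyte precursor-like cells, whose intervals overlap. Lama3, best known from the laminin of epithelial anchoring, had 21 of its 24 UMIs in 17 astrocyte-like cells (0.243, 0.15 to 0.371). Thinned, its level there was 0.138, in 2.76% of cells instead of 6.09%. Lama1 had 3 UMIs, all in 1 pericyte-like cell. Among the alpha-chain UMIs of each class, endothelial-like cells had 58.7% Lama5 and 33.3% Lama4, pericyte-like cells 54.2% Lama2 and 42.2% Lama4, and astrocyte-like cells 82.1% Lama2 and 17.1% Lama3. Shares between different genes rest on 3′ tags, whose capture can differ by gene.

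Lamb2 was the leading beta chain in every vascular class. It had 240 UMIs, and its level was 3.88 (2.71 to 5.37) in smooth muscle-like, 2.09 (1.53 to 2.79) in pericyte-like, 1.81 (1.44 to 2.24) in endothelial-like and 0.658 (0.499 to 0.853) in astrocyte-like cells. The smooth muscle-like and pericyte-like intervals overlap slightly, and the astrocyte-like interval lies below the other 3. It took all 84 beta-chain UMIs of endothelial-like cells and 46 of the 57 in pericyte-like cells, where Lamb1, the beta chain of early-forming laminins, held the other 11. Lamb1 had 19 UMIs in all, 7 of them in neuroblast-like cells. Lamb3 had 1 UMI.

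The gamma chains were concentrated in pericyte-like cells, which held 164 of their 260 UMIs (63.1%, 56.9 to 69). Lamc1, the gamma chain of most laminins (chr1:153218922-153332786, minus strand), stood at 4.82 (3.94 to 5.83) in pericyte-like cells, 1.51 (0.824 to 2.53) in smooth muscle-like cells and 0.538 (0.348 to 0.793) in endothelial-like cells, with no overlap of the 3 intervals. Lamc3, a gamma chain of restricted distribution (chr2:31887291-31946539, plus strand), had 58 of 67 UMIs in 31 pericyte-like cells, a level of 2.64 (2 to 3.41), which was 181-fold (89.1 to 416) that of the other brain-class cells. The next level was 0.323 (0.0666 to 0.944) in smooth muscle-like cells.

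Chains of 1 trimer were often not seen in the same cell at this depth. Lama4 and Lamc1 were both detected in 16 pericyte-like cells, with Lama4 alone in 9, Lamc1 alone in 28 and neither in 16. In endothelial-like cells both were detected in 2, Lama4 alone in 17 and Lamc1 alone in 19. Lamb1 and Lamc1 were both seen in 7 pericyte-like cells, Lamb1 alone in 4 and Lamc1 alone in 37.

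**Figure D3:**
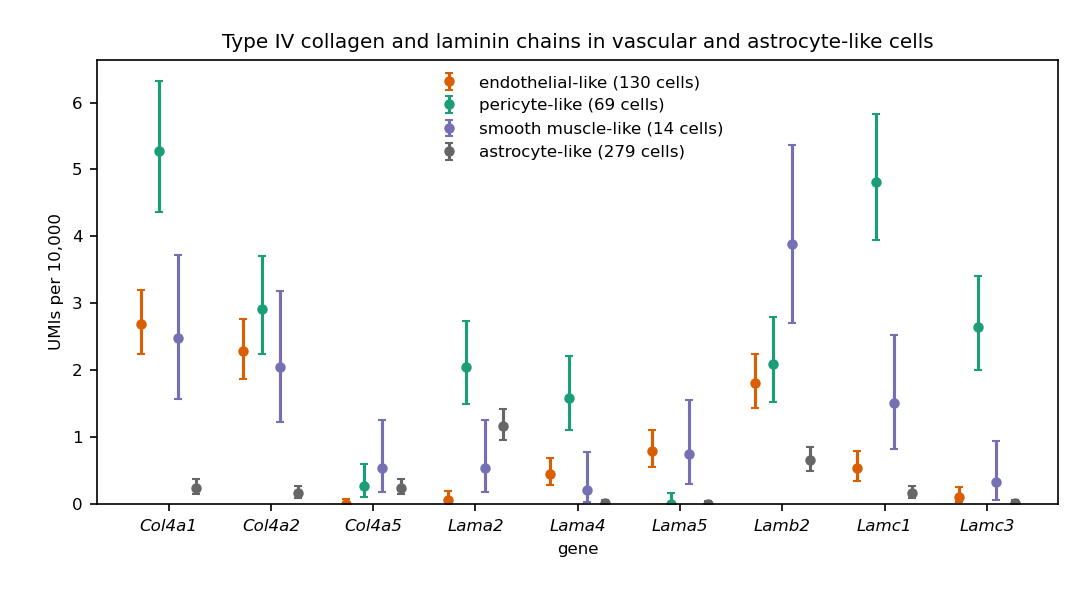
Level in UMIs per 10,000 (y axis) of 9 type IV collagen and laminin chains (x axis) in endothelial-like, pericyte-like, smooth muscle-like and astrocyte-like cells of the young library, with 95% Poisson intervals as error bars. Col4a1 and Lamc1 are highest in pericyte-like cells at 5.27 and 4.82, Lama5 is seen in endothelial-like and smooth muscle-like cells, and Lama2 in pericyte-like and astrocyte-like cells.

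Fibrillar collagen transcripts in the vascular classes were carried by pericyte-like cells. Col1a2, a chain of type I collagen (chr6:4504814-4541544, plus strand), had 45 of 58 UMIs in 29 of the 69 pericyte-like cells, a level of 2.05 (1.49 to 2.74), and 8 UMIs in 7 of the 14 smooth muscle-like cells (0.861, 0.372 to 1.7). No Col1a2 UMI was found in endothelial-like cells, which allows a level of up to 0.0645. All 22 Col3a1 UMIs, which encode the type III chain of compliant tissues such as vessel walls, fell in 17 pericyte-like cells (1, 0.627 to 1.51). Of the 20 UMIs of Col5a2, a type V chain that sits in type I fibres, 9 were in pericyte-like cells (0.409, 0.187 to 0.777).

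The pericyte-like signal of Col1a2 was spread over many cells, most with 1 UMI and the highest with 8. Col1a1, whose product pairs with that of Col1a2 in type I collagen, was detected in only 2 of the 69 cells, with 6 UMIs, and both of these cells also had Col1a2, whereas 27 cells had Col1a2 alone.

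Markers of fibroblasts, the usual source of type I and III collagen, were also found in pericyte-like cells. Pericyte-like cells held 133 UMIs of the 14 fibroblast markers measured (6.05 per 10,000), led by Slc6a13 with 52, and 3 of the 14 were at 0. The 29 cells with Col1a2 held 85 of these UMIs and the 40 without it 48. The 44 cells with the laminin chain Lamc1 held 107 and the others 26. The 17 cells with Col3a1 held 49 and the others 84, and the 7 with Col5a2 held 6 and the others 127. These splits were not adjusted for depth. Endothelial-like cells had 25 fibroblast-marker UMIs (0.538 per 10,000) and smooth muscle-like cells 8 (0.861). The 3 pericyte-like cells richest in these markers held 50 of the 133 marker UMIs. They also held 11 Col1a2 UMIs, 2 Col3a1 UMIs and all 6 Col1a1 UMIs of the class. Without these 3 cells the Col1a2 level was 1.62 in place of 2.05, and the count of members called was again 10. The part of other cells' RNA in the remaining signal was not tested.

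The stretch before the RefSeq start of Col1a2 that holds no GENCODE exon (chr6:4505370-4505492, plus strand, 123 bases) lies inside the GENCODE gene span given above, which begins further upstream than the RefSeq start, and is shown because Col1a2 also leads the low-mitochondrial cells described below. Capitals mark 2 GC boxes.
Col1a2, before its RefSeq start: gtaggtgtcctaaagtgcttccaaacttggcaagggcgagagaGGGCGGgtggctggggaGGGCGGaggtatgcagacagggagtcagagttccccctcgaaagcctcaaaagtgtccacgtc

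Astrocyte-like cells carried a different set of fibrillar and associated collagens. Col11a2, a type XI chain known from cartilage and the inner ear (chr17:34039437-34066685, plus strand), had 216 of 244 UMIs in 117 of the 279 astrocyte-like cells. The level of Col11a2 there was 2.49 (2.17 to 2.85), 49.3-fold (33.2 to 76) that of the other brain-class cells, and the next was 0.338 (0.169 to 0.604) in oligodendrocyte precursor-like cells. As a mean over cells the level was 3.98. The smaller astrocyte-like cluster, of 23 cells, had 1 of the Col11a2 UMIs and the other cluster 215, at 2.68 (2.33 to 3.06). Col11a2 was detected in 41.9% of astrocyte-like cells, beside 20.9% (10 to 36) of oligodendrocyte precursor-like and 1.71% of microglia-like cells. Col16a1, which encodes a fibril-associated collagen, had 45 of 55 UMIs in astrocyte-like cells (0.52, 0.379 to 0.696). Col5a3, a type V chain, had 15 of 29 UMIs there (0.173, 0.097 to 0.286) and 8 in pericyte-like cells (0.364, 0.157 to 0.716). Col1a1 had 15 of 23 UMIs in 14 astrocyte-like cells (0.173, 0.097 to 0.286), and none of these 14 cells had a Col1a2 UMI. Thinned to 2000 UMIs per cell, none of the 145 astrocyte-like cells deep enough kept a Col1a1 UMI, and the other 134 were left out.

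Astrocyte-like cells also held 236 UMIs of the 12 pericyte markers (2.73 per 10,000) and 203 of the 13 endothelial markers (2.34). Pdgfrb led the pericyte markers with 128 UMIs, and 0 of the 12 were at 0. The same marker sets stood at 432 per 10,000 in pericyte-like and 261 in endothelial-like cells. Lama5, which is high in endothelial-like cells, had no UMI in astrocyte-like cells, and Lamc3, which is high in pericyte-like cells, had 1. These counts are too small to measure vascular RNA in astrocyte-like cells. Its part in their levels of Lama2 and the type IV chains was not tested.

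Col9a3, a chain of the fibril-associated type IX collagen, was spread over the glial classes other than microglia-like cells, which had 1 UMI in 351 cells. It had 182 UMIs, and its level was 1.04 (0.723 to 1.46) in oligodendrocyte precursor-like, 0.924 (0.733 to 1.15) in astrocyte-like and 0.685 (0.508 to 0.902) in oligodendrocyte-like cells, with overlapping intervals, and 0.199 (0.0908 to 0.377) in neuroblast-like cells. Its type IX partners were nearly absent, Col9a1 with 4 UMIs and Col9a2 with 5. Col11a1, the other type XI chain measured, had 16 of 38 UMIs in oligodendrocyte precursor-like cells (0.491, 0.281 to 0.797) and 13 in neuroblast-like cells (0.287, 0.153 to 0.49), whose intervals overlap.

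Col18a1, which encodes the basement membrane collagen that releases endostatin, had 30 UMIs. It was at 0.754 (0.303 to 1.55) in smooth muscle-like, 0.307 (0.147 to 0.564) in oligodendrocyte precursor-like and 0.151 (0.0605 to 0.31) in endothelial-like cells. Of the 7 endothelial-like UMIs, 6 were in the smaller endothelial-like cluster. After thinning, Col18a1 was left in 0 of 13 smooth muscle-like and 0 of 38 oligodendrocyte precursor-like cells.

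Microglia-like cells were low in the members as a set but held most transcripts of 2 of the 22 members described singly, both collagens. Col27a1, a fibrillar collagen of cartilage (chr4:63214004-63334991, plus strand), had the most UMIs of any member, 510, and 400 of them (78.4%) were in microglia-like cells. The level of Col27a1 was 1.43 (1.3 to 1.58) in microglia-like cells and 1.05 (0.663 to 1.57) in pericyte-like cells, with overlapping intervals, and 0.93 (0.641 to 1.31) in the unnamed cluster led by Ttr and hemoglobin genes. It was 0.0685 (0.0222 to 0.16) in oligodendrocyte-like cells and 0.043 (0.00521 to 0.155) in endothelial-like cells. Col27a1 was detected in 217 of 351 microglia-like cells (61.8%, 56.5 to 66.9), with up to 10 UMIs in a cell. Once thinned to 2000 UMIs, it was left in 24.4% of microglia-like cells (19.9 to 29.4) and 18.2% of pericyte-like cells (9.08 to 30.9). In the unnamed cluster led by Ttr and hemoglobin genes the thinned share was 15.4% (7.63 to 26.5), and these intervals overlap. Oligodendrocyte-like cells, which are deeper (median 9500.5 UMIs), had it in 6.1% and kept none after thinning.

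Col15a1, a basement membrane collagen related to Col18a1 (chr4:47208161-47313167, plus strand), was more restricted, with 82 of 88 UMIs in 68 microglia-like cells. The level of Col15a1 was 0.294 (0.234 to 0.365), 17.7-fold (7.78 to 49.5) that of the other brain-class cells, and no Col15a1 UMI was found in the endothelial-like, smooth muscle-like or astrocyte-like cells, which allows levels of up to 0.0645, 0.323 and 0.0347. Both genes were detected together in 36 microglia-like cells, Col27a1 alone in 181 and Col15a1 alone in 32. Neither was called 4-fold higher in these cells, since 0.1 was added to each level: Col27a1 without that addition was 4.7-fold (3.8 to 5.86) higher.

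The 250 bases before each RefSeq start are shown because these genes share a lead class that is low in the other members, chr4:63215162-63215411 for Col27a1 and chr4:47207762-47208011 for Col15a1, both on the plus strand. That of Col27a1 lies inside the GENCODE span given above, which begins upstream of the RefSeq start. Capitals mark the GC box of Col27a1. The string GAGGAAGT, an ETS core with a purine tract as bound by the myeloid factor PU.1, was searched on both strands and was in neither stretch and in 2.44% of all windows.
Col27a1, before its RefSeq start: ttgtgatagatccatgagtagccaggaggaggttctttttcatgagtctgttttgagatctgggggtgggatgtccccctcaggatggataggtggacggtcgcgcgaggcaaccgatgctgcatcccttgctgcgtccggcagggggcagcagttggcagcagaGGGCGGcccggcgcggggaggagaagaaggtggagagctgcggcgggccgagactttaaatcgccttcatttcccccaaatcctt
Col15a1, before its RefSeq start: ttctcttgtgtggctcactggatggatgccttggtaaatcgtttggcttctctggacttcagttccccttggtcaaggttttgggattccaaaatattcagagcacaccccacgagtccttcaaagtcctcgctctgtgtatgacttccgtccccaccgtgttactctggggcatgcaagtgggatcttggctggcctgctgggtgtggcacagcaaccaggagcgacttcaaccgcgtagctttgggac

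The 27 members with under 20 UMIs had 181 UMIs together. Col8a1, a short-chain collagen of vessel walls, had 18 UMIs, 72.2% of them in pericyte-like cells. Col14a1 had 9 of 12 UMIs in endothelial-like cells, Col6a3, a type VI chain, 12 of 15 in microglia-like cells, Col25a1 6 of 7 in the same class and Col12a1 10 of 15 in neuroblast-like cells. The 5 type VI genes had 27 UMIs in all. Col22a1, Col5a1 and Col6a4 had none in brain-class cells.

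Summed by family, the type IV collagens had 564 UMIs, of which endothelial-like cells held 41.3% (37.2 to 45.5) and pericyte-like cells 36.3% (32.4 to 40.5). Fibrillar collagens had 945 UMIs, 43.2% in microglia-like cells, where 400 of 408 were Col27a1, and 30.2% in astrocyte-like cells. As a mean over cells the microglia-like share was 21.3%. Other collagens had 458 UMIs, led by astrocyte-like cells with 32.1%, or 52.5% as a mean over cells. Of the 343 laminin alpha UMIs 35.9% were in astrocyte-like cells, and of the 260 beta UMIs 32.3% were in endothelial-like cells. Such shares follow the number and depth of the cells captured as well as the level per cell.

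The partners of these chains were read from lists of other matrix genes. Of 15 testable basement membrane partners, 5 were called in endothelial-like cells (Vwa1, Fn1, Tinagl1, Hspg2 and Agrn) and 3 in pericyte-like cells (Vtn, Nid1 and Egflam). Fn1, fibronectin, stood at 7.76 per 10,000 in endothelial-like cells and 0.0303 in the other brain-class cells. Nid1, nidogen, which links laminin to type IV collagen, stood at 5.09 in pericyte-like cells and 0.0388 elsewhere. Vtn, vitronectin, at 257 in pericyte-like cells, is also 1 of the markers that named that class.

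Genes that fold and modify collagen were called in pericyte-like cells for 3 of 19 (Serpinh1, Plod2 and Crtap) and in endothelial-like cells for 0 of 19. Serpinh1, the collagen chaperone HSP47, stood at 5.86 in pericyte-like and 2.3 in endothelial-like cells, beside 0.458 in all cells other than pericyte-like ones. Of 6 testable genes of collagen cleavage and fibril assembly, 2 were called in pericyte-like cells, Bgn at 5.73 and Pcolce at 1.41, which encodes an enhancer of procollagen cleavage. Endothelial-like cells had no Pcolce UMI and none of the 6 called.

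Receptors for laminin and collagen were called in pericyte-like cells for 6 of 14 (Itga1, Itga7, Dmd, Ddr2, Bcam and Utrn) and in endothelial-like cells for 3 of 14 (Utrn, Bcam and Itga1). Itga1, the integrin alpha chain that binds type IV collagen, stood at 11 in pericyte-like and 3.1 in endothelial-like cells. Itga7, a laminin-binding integrin chain of muscle, stood at 1.64 in pericyte-like cells. Among 16 proteases and inhibitors, Plat, tissue plasminogen activator, was called in both classes, at 5.86 and 5.65, and Timp3, an inhibitor bound to matrix, in endothelial-like cells at 6.71. The shares of all genes called in these classes are those given above, 3.23% and 3.99%. Smooth muscle-like cells (2.87% of all genes) had 6 of 14 receptors called (Bcam, Itga7, Utrn, Dag1, Itgb1 and Itga1), 2 of 15 partners (Ntn4 and Tinagl1), 2 of 19 folding genes (Serpinh1 and P4ha2), 2 of 6 cleavage and assembly genes (Pcolce and Bgn) and 1 of 16 proteases and inhibitors (Timp3). At least 4-fold lower by the same rule were 3 of the 14 receptors in smooth muscle-like, 3 in pericyte-like and 2 in endothelial-like cells. Of the 16 proteases and inhibitors, 4, 2 and 3 were lower in the same order. Their median log2 ratio was -0.91 in pericyte-like cells, beside -0.12 for all genes, and -1.01 in endothelial-like cells, beside -0.15.

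Low-mitochondrial cells had another set of leading chains. Their summed member level was 5.31 per 10,000 beside 4.46 in all brain-class cells, but Col1a2 led with 1596 UMIs, in 43.6% of cells. The level of Col1a2 was 1.63 (1.55 to 1.71), 17.9-fold (13.8 to 23.7) that of brain-class cells. Col4a5 followed with 671 UMIs (0.683, 0.633 to 0.737; 13.3-fold) and Col4a6 with 492 (0.501, 0.458 to 0.547), a ratio of 64.1 (27.3 to 198) to the 5 brain-class UMIs. Col2a1, the main collagen of cartilage, had 571 UMIs in 386 cells against 1 UMI in all brain-class cells, a ratio of 372 with a counting interval of 66.5 to 14727. Col1a1 had 379 UMIs (10.7-fold), Col5a2 192 (6.26-fold), Col11a1 184 (3.16-fold) and Lamb1 123 (4.22-fold).

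Several members with many brain-class UMIs were lower there, and Col3a1, at 0.948 (0.534 to 1.71) times the brain-class level, was not set apart. Lamb2, at 0.237, and Lamc1, at 0.174, had 0.633 and 0.578 times the brain-class level. Col4a1 had 0.176 times, Col4a2 0.15 times, Lama2 0.0432 times, Col27a1 0.0486 times and Col15a1 0.0222 times the brain-class level. Col4a5 and Col4a6, whose genes are neighbours, were both detected in 157 of the 1343 cells, Col4a5 alone in 271 and Col4a6 alone in 135.

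**Figure D4:**
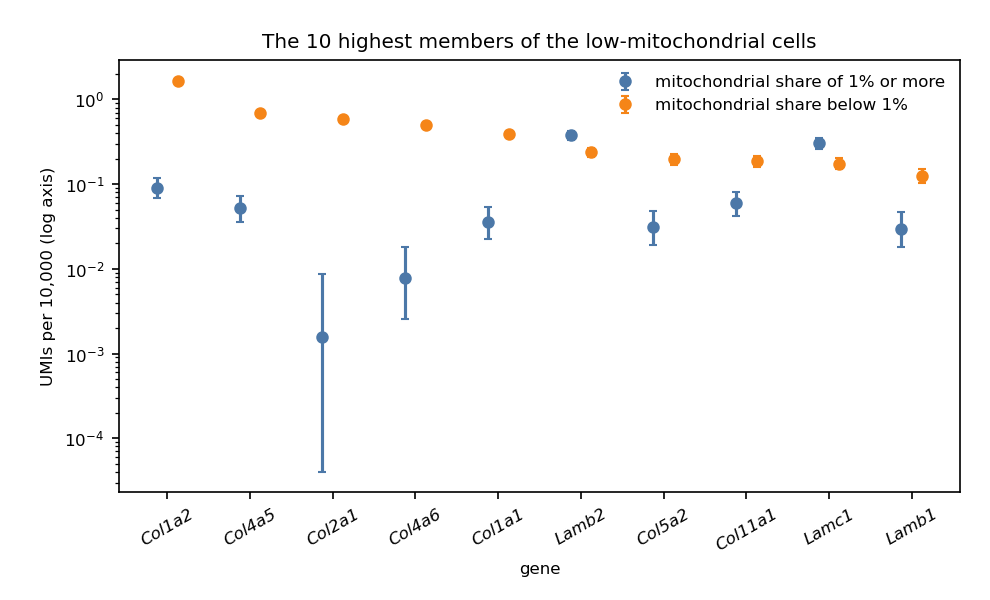
Level in UMIs per 10,000 (y axis, log scale) of the 10 members highest in low-mitochondrial cells (x axis), in the 1343 young cells with a mitochondrial share below 1% (orange) and the 1120 with at least 1% (blue), with 95% Poisson intervals as error bars. Col1a2, Col4a5, Col2a1, Col4a6 and Col1a1 are over 10-fold higher below 1%, while Lamb2 and Lamc1 are lower there.

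Within the low-mitochondrial cells, the members were unevenly spread. An unnamed cluster of 92 cells, led by Twist1, Prrx1, S100a8 and S100a9, had a summed level of 14 (13.2 to 14.9), with Col1a2 at 6.3 (5.75 to 6.89) in 91.3% of cells, Col1a1 at 1.81 (1.52 to 2.14) and Col2a1 at 1.49 (1.23 to 1.79). Of its 92 cells, 54 had both type I chains, 30 Col1a2 alone and 2 Col1a1 alone. Its Col4a6 level was 0.145 (0.0725 to 0.26), below the 0.985 (0.838 to 1.15) of the 230-cell cluster led by genes that include Sox2 and Hes1, where Col4a5 reached 1.19 (1.03 to 1.37). Of the clusters led by genes of neurons, those with Stmn2 among the leading genes had summed levels of 1.27 (1.03 to 1.56) in 157 cells and 1.32 (1 to 1.7) in 77 cells, and Col1a2 was detected in 6 and 7 of these cells. A cluster of 54 cells that was also led by genes of neurons, Sst and Neurod1 among them, was higher, with a summed level of 3.44 (2.86 to 4.1) and Col1a2 at 1.76 (1.36 to 2.25) in 28 cells. The source of the low-mitochondrial cells is not given in the labels and was not tested.

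The old rows repeated the young values. Over 1082 barcodes that were brain-class in the young library, the members had 2736 UMIs in the young and 3061 in the old rows, a ratio of 1.12, which is also the ratio of all UMIs. Of 2175 cell and member entries above 0 in either library, 1336 (61.4%) were equal and 2117 (97.3%) differed by at most 1 UMI. Col4a1 had 288 UMIs in the young and 327 in the old rows, Lamc1 190 and 209, Col11a2 222 and 261, Col27a1 491 and 541 and Col1a2 56 and 60. No difference with age can be read from rows that hold the same cells.

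**Figure D5:**
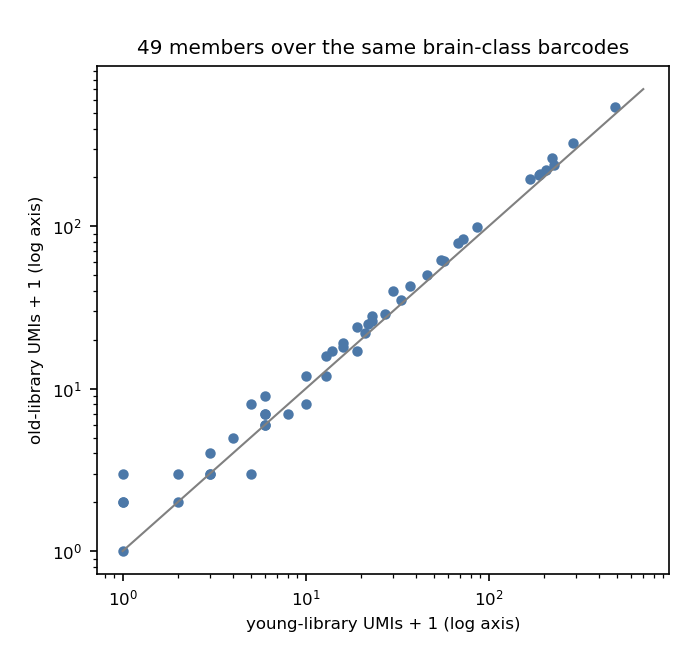
UMIs + 1 of each of the 49 members in the young rows (x axis, log scale) and the old rows (y axis, log scale) over the same 1082 brain-class barcodes, 1 point per gene, with a grey line of equal values. The points follow the line closely, with totals of 2736 and 3061 UMIs.

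The 3′ ends of 5 members overlap a gene on the other strand in the GENCODE M21 annotation: Col4a1 (Gm15418), Col4a3 (C430014B12Rik), Col9a3 (Tcfl5), Lama2 (Gm48084) and Col18a1 (Slc19a1). Whether counting used strand is not given in the sources used here, and whether reads of the opposite genes entered these counts was not tested. No member overlapped a gene on its own strand there, and at most 3.21% of the 31-base words of a member's last 500 transcript bases occurred in another gene.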

How the data were processed

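The authors deposited 1 table of 3893 cells and 17592 genes, with values on a natural log scale, ln(1 + UMIs per 10,000); the labels name no unit, and this one follows from each cell's linear sum of 10000. Cell Ranger 5.0.0 and mm10 are named per the submitters' processing notes. Whole UMIs were recovered from the deposited values, with 100% within 0.01 of a whole number. The members and lists were chosen with earlier results of these data known.

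Young cells with a mitochondrial share of at least 1% were clustered with scanpy 1.11.5 (2000 variable genes without the members, 30 components, 15 neighbours, Leiden resolution 1). A cluster was named when 3 markers of a class each had UMIs in 25% of its cells and at least 4 times the level of the other cells. A cluster with at least 80% of the markers of 2 classes stayed unnamed, a rule added after the data were seen. Levels are summed UMIs per 10,000, with exact Poisson intervals, and shares have exact Clopper-Pearson intervals. A count of 0 is given with the level that 3 UMIs over the class would have. Scrublet called 37 young doublets, which were kept. Members with at least 20 UMIs in brain-class cells were described singly, as were the 10 highest in low-mitochondrial cells and the 3 highest ratios per list of other matrix genes in endothelial-like and pericyte-like cells. The pairs Col4a5 with Col4a6 and Col27a1 with Col15a1, Col1a1 with Col1a2 outside the vascular classes, and the members named below 20 UMIs were picked after their values were seen. The 4-fold call was also run on simulated summed counts. These had no variation between cells, so the run says nothing of calls that rest on few cells. Of the 49 members, all matched GENCODE M21 and 35 the RefSeq promoter table.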

Additional observations from a re-analysis of the deposited data

How the results depend on the processing

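Of 458 alternative values of single members, 431 stayed within the counting interval of the reported value, and most others were thinned values. Of 193 alternative shares and counts, 162 stayed within the limits used (the interval of a share, 1.5 times a count). The share of fibrillar UMIs in microglia-like cells was 21.3% as a mean over cells and 36.8% after thinning. As means over cells, other collagens in astrocyte-like cells were 52.5%, laminin alpha chains there 44.7% (29.2% thinned) and gamma chains in pericyte-like cells 71.6% (69.6% at resolution 0.5). With 0.01 added in place of 0.1, members called at least 4-fold higher numbered 2 in microglia-like, 8 in astrocyte-like, 1 in neuroblast-like and 3 in oligodendrocyte precursor-like cells. With 1 added they numbered 2 in pericyte-like cells and 0 in astrocyte-like, endothelial-like, oligodendrocyte precursor-like and smooth muscle-like cells. After thinning they were 1 in astrocyte-like and 4 in smooth muscle-like cells. As means over cells they were 4 in smooth muscle-like and 0 in oligodendrocyte precursor-like cells. With a minimum of 50 UMIs they were 5 and 0 in the same order. In microglia-like cells the count was 1 with members kept among the variable genes, both libraries clustered together, resolution 0.5, mitochondrial limits of 0.5% or 2%, or old rows. In oligodendrocyte precursor-like cells it was 2 with both libraries together, a limit of 0.5% or old rows. The cause was not tested, except that a larger addition or minimum by its construction holds back low genes. Microglia-like cells at resolution 2 and smooth muscle-like cells at resolution 0.5 were not found, and gave no value. Leaving out the 3 pericyte-like cells richest in fibroblast markers, an alternative chosen after seeing the data, changed no count of members called, and leaving out doublet calls changed only the pericyte-like one, to 9. No paired analysis was possible because each age has 1 library and no test was made. A level below about 0.1 rests on few UMIs in most classes.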
